A study of Mus musculus with 18 samples.

Results

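The genes described here are 6 mouse genes: Selplg, Fut7, Fut4, Gcnt1 and St3gal4, which build the selectin ligands of leukocytes, and the adhesion receptor gene Cd44. They were chosen by name, with earlier results of these data known, and all 6 were found by symbol among the 55487 genes of the deposited tables. The libraries hold poly(A) RNA of regulatory T (Treg) cells, CD4-positive T cells marked by the transcription factor Foxp3, sorted fresh from wild-type mice that had received no treatment. There are 6 groups of 3 libraries, 18 in all, which differ in the organ of origin: peripheral blood, bone marrow, spleen, lymph node, liver and lung. The age and sex of the mice, the sorting gates and the number of animals in a library are not given in the sources used here. Nothing in the labels says that the 3 libraries of an organ came from separate animals, so the p-values measure the spread between these libraries, which may be technical. Values are TPM (transcripts per 1000000), an abundance per transcript length that is scaled to 1 total in every library, so levels can also be compared between genes.

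Selectins are lectins on endothelium, platelets and leukocytes that catch passing cells by their sugars and let them roll along the vessel wall. Their main ligand on T cells is P-selectin glycoprotein ligand 1 (PSGL-1), the product of Selplg, which binds only when it carries the right O-glycans and, for P-selectin, sulfated tyrosines. Gcnt1 adds the core 2 branch to those O-glycans, St3gal4 is one of the enzymes that cap the branch with sialic acid, and Fut7 and Fut4 add the fucose that completes sialyl Lewis x and related structures. Cd44 encodes the receptor for hyaluronan, is widely used as a marker of activated and memory T cells, and can itself carry selectin-binding glycans. In T cells these genes are known for controlling entry into inflamed skin and other tissues.

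The members lie on 4 chromosomes of the mm10 assembly, by the GENCODE M21 annotation. Selplg is on chromosome 5 (113818536 to 113832644, minus strand) and Gcnt1 on chromosome 19 (17326141 to 17372844, minus strand). Fut7 (25423267 to 25426374, plus strand) and Cd44 (102811141 to 102901665, minus strand) are both on chromosome 2. Fut4 (14748320 to 14752393, minus strand) and St3gal4 (35046576 to 35119268, minus strand) are both on chromosome 9. Fut4 has a single exon, whereas the 8 protein-coding transcripts of Cd44, of 9 annotated, have between 9 and 19 exons, so the gene-level value of Cd44 sums isoforms that are not separated here. Exons of St3gal4 overlap, over 412 of 2923 exonic bases, those of 4930581F22Rik, a transcript on the opposite strand with means of 88.5 TPM in blood, 63.3 in bone marrow, 50.8 in spleen, 51.4 in lymph node, 53.9 in liver and 26 in lung. Whether strand was used in counting is not given in the sources used here, so reads of that overlap cannot be told apart.

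Promoter sequence was read from the RefSeq table of the GRCm38.p6 assembly (the assembly of mm10), which held windows for 5 of the 6 members. Shown are the 250 bases upstream of the first listed start of Fut7, the member highest in bone marrow, and of Gcnt1 and Cd44, which were among those highest in blood. They are written 5′ to 3′ on the gene's own strand, and capitals mark motif matches found by search on both strands.
Fut7, chr2:25422992-25423241, plus strand: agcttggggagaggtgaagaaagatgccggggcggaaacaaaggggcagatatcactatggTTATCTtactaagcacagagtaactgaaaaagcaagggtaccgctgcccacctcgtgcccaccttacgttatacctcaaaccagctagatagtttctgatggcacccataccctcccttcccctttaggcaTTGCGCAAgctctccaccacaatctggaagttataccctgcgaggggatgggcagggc
Gcnt1, chr19:17372845-17373094, minus strand: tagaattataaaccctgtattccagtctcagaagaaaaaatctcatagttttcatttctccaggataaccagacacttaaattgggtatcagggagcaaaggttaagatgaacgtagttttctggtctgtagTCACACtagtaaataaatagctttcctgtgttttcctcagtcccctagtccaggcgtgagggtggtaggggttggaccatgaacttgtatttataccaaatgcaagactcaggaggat
Cd44, chr2:102901666-102901915, minus strand: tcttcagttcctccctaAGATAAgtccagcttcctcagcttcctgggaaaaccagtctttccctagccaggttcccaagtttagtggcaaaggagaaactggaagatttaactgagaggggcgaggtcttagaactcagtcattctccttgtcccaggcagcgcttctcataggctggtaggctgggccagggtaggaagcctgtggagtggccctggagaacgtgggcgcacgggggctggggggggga
The capitals in Fut7 are a C/EBP palindrome (TTGCGCAA), 58 bases before the start, and a GATA motif (AGATAA) on the opposite strand, printed as TTATCT. In Gcnt1 they are a T-box motif (TCACAC), 118 bases before the start, and in Cd44 a GATA motif on the gene's own strand. Of all 32851 upstream windows of this length, 0.164% held the C/EBP palindrome, 9.99% the GATA motif and 12.3% the T-box motif. No 2 matches overlapped. The windows of Fut4 and St3gal4, which were also highest in blood, held no match and are not shown. Nor was there a match in the second window of Fut7 or the third of Gcnt1. A second upstream window of Gcnt1 held a PU.1 motif (GAGGAAGT), present in 2.44% of windows, and 2 further motifs, STAT (TTCNNNGAA, 7.02% of windows) and an E-box (CACGTG, 6.02%), were in none of the members' windows. The motifs were chosen after the sequences had been read, and a match describes letters, not a binding site.

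Foxp3 was present in every library, at 85.4 to 92.2 TPM in blood and at 132 to 240 TPM in the libraries of the other organs. The 6 Treg genes summed to 802 to 818 TPM in blood, the lowest, and to 1370 to 2670 TPM elsewhere. Presence of these genes does not give the share of Treg RNA in a library. Genes of other cells were present too, and most unevenly so in blood and bone marrow. The summed level of 15 neutrophil genes was 19700 to 20900 TPM in blood and 48500 to 49000 TPM in bone marrow, against 21.6 to 875 TPM in the other 4 organs, and no gene of that list was at 0 in any organ. The 12 monocyte and macrophage genes summed to 11100 to 11500 TPM in blood, 3930 to 4060 TPM in bone marrow and 244 to 1590 TPM elsewhere, again with none at 0. Ctss alone had means of 336 TPM in lymph node, 347 in spleen, 177 in liver and 322 in lung, beside mean sums of 357, 585, 252 and 1520. In lymph node only 5 genes of the list reached a mean of 1 TPM. The 7 platelet genes summed to 2750 to 2870 TPM in blood, 70.5 to 82.3 TPM in bone marrow and at most 22.6 TPM elsewhere, where Tubb1 (spleen) and Gp1bb (lymph node, liver and lung) were listed at 0. The 9 genes of CD8 T and natural killer cells summed to 636 to 690 TPM in blood and 60.2 to 133 TPM elsewhere, with Klrd1 listed at 0 in liver. The CD8 genes Cd8a and Cd8b1 were highest in lymph node (18.8 and 29.0 TPM), with 12.8 and 19.6 TPM in blood. The other genes of the list were highest in blood, with means there of 329 TPM for Gzma and 49.4 TPM for Ncr1. The part of these cells in the members' levels was not tested. Neutrophils, monocytes and platelets are themselves rich in selectin ligands or selectins, and their part in the members' levels was not tested. The number of genes above 0 ran from 14314 in a liver library to 19797 in a bone marrow library, and the median coefficient of variation of genes of at least 100 TPM from 2.55% in lymph node to 10.5% in liver, so low genes are measured least precisely in liver and lung.

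**Figure D1:**
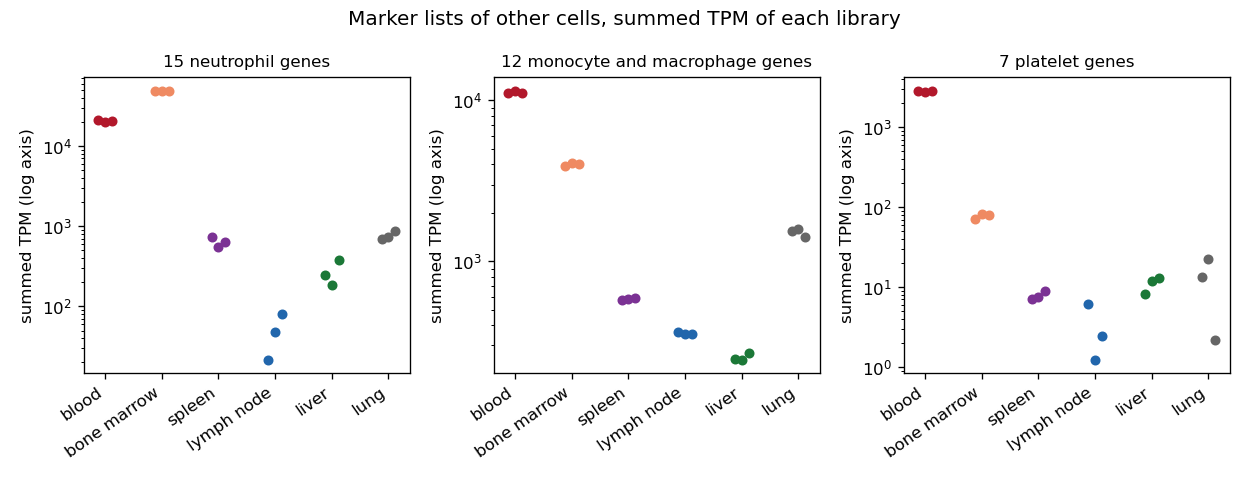
Summed TPM of 3 marker lists of other cells in each of the 18 libraries (y axis, log scale) by organ (x axis), 1 dot a library. The blood and bone marrow libraries lie above those of the other 4 organs in all 3 lists: bone marrow is highest for the neutrophil genes and blood for the monocyte and platelet genes.

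Of the 6 members, 5 were highest in blood and 1, Fut7, was highest in bone marrow. Spleen or lung was lowest for 5 members, and Fut4 was listed at 0 in the 3 liver libraries. All 6 members differed among the organs at an adjusted p under 0.05 (limma F test on log2(TPM + 1), Benjamini-Hochberg adjustment over 16694 genes), as did 68.0% of all genes tested, so a call in this test does not set the members apart. The largest adjusted p of the members was 0.00192, for Fut7. All 6 passed the filter (1 TPM or more as the mean of some organ), but Fut4 passed it only through blood and bone marrow. In bulk libraries a lower value can come from fewer cells that express a gene or from less RNA per cell, and these cannot be told apart.

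**Figure D2:**
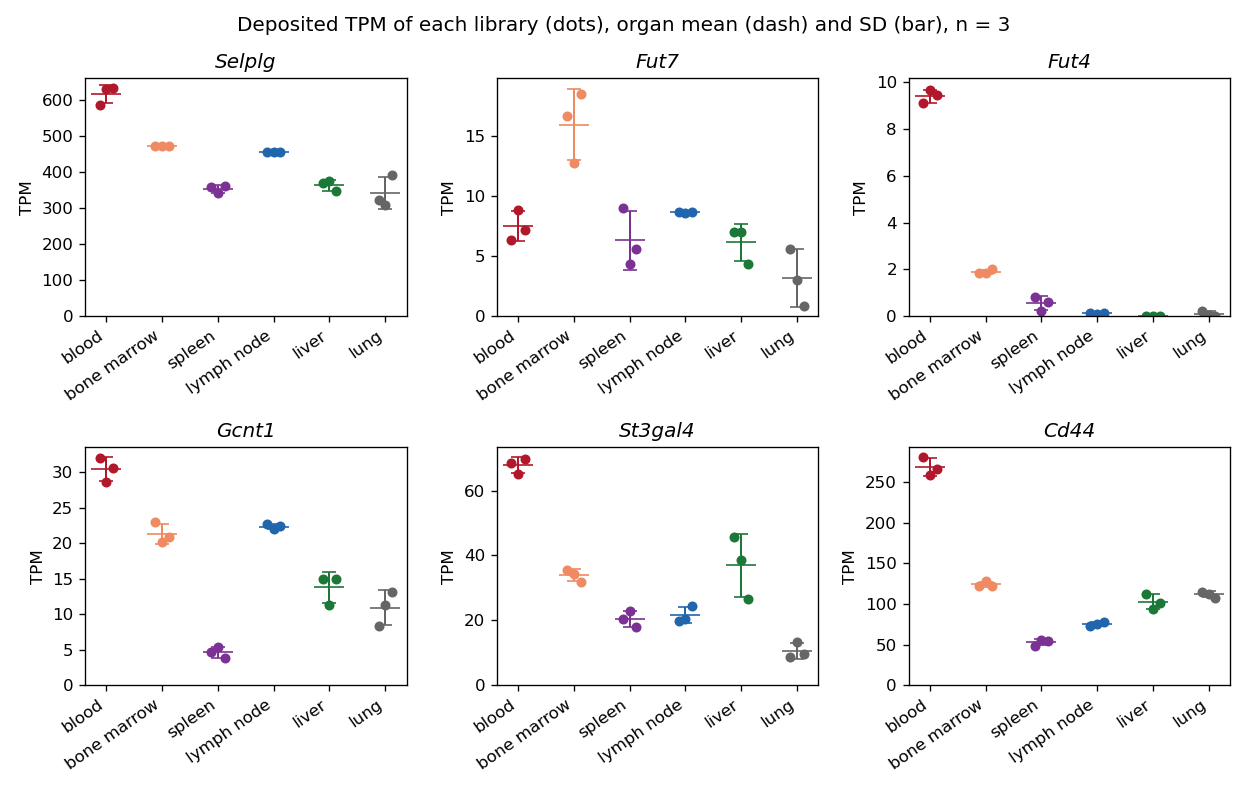
TPM of each member (y axis, linear from 0) in the 6 organs (x axis), with 1 dot a library, the organ mean as a dash and the SD over 3 libraries as a bar. Blood is highest for 5 genes, and bone marrow for Fut7, whose spread within spleen, liver and lung is wide.

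Selplg, the protein scaffold, was the most abundant member in every organ and varied least. It measured 588, 632 and 634 TPM in the blood libraries (618 ± 25.7, mean ± SD, n = 3). In bone marrow it stood at 474, 473 and 473 TPM and in lymph node at 456 TPM in each library. Liver followed with 370, 376 and 347 TPM (364 ± 15.1), spleen with 359, 341 and 361 TPM (354 ± 10.9) and lung with 324, 310 and 393 TPM (342 ± 44.4). The blood libraries did not overlap with those of any other organ, and the highest lung library lay above all liver and spleen libraries. The ratio of the highest to the lowest organ mean was 1.81.

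Blood exceeded bone marrow, its nearest neighbour for Selplg, by 0.38 ± 0.07 on the log2(TPM + 1) scale (SE, limma, adjusted p = 3.66e-04). Bone marrow and lymph node were not called apart with the spread shared over all organs (0.05, 95% interval -0.09 to 0.2, adjusted p = 0.693). Their libraries did not overlap, and a fit of those 2 organs alone called bone marrow higher (adjusted p = 0.0439). Lymph node was above liver by 0.32 ± 0.07 (adjusted p = 0.00179). Among liver, spleen and lung the neighbours did not differ, with log2 differences of 0.04 (interval -0.1 to 0.19) and 0.06 (interval -0.09 to 0.2). Without lung replicate 3, Selplg was called lower in lung than in spleen and in liver, at adjusted p of 0.0142 and 0.00418. Bone marrow was above lymph node by 0.66 (adjusted p = 5.69e-07) with scaling to 20 T cell genes. Selplg was no longer called higher in lymph node than in spleen or liver with that scaling (adjusted p = 0.359 and 0.314) or with median ratio scaling (0.142 and 0.261).

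Gcnt1, the core 2 branching enzyme, was least abundant in spleen. It measured 32.0, 28.7 and 30.6 TPM in blood (30.4 mean), 22.8, 22 and 22.4 TPM in lymph node, and 23.0, 20.3 and 20.9 TPM in bone marrow. Liver held 15.1, 11.3 and 15 TPM, lung 8.33, 11.3 and 13.2 TPM, and spleen 4.67, 5.40 and 3.90 TPM (4.66 ± 0.75, n = 3). The spleen libraries lay below every other library, and the blood libraries above every other.

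Spleen was below lung, its neighbour in the order, by 1.06 ± 0.16 on the log2 scale (limma, adjusted p = 6.43e-05). Gcnt1 in spleen differed from lymph node by -2.06 ± 0.16 (adjusted p = 5.5e-07), so that spleen and lymph node stood far apart for this gene. Lymph node and bone marrow did not differ beyond their spread (0.07, interval -0.28 to 0.41), nor did liver and lung (0.32, interval -0.02 to 0.66, adjusted p = 0.142), although this passed without liver replicate 2 (0.0468) or lung replicate 3 (0.0457). Blood was above lymph node by 0.43 ± 0.16, at an adjusted p of 0.0485 that missed the threshold in 15 of 28 alternatives, 11 of which left out 1 library (range 2.97e-07 to 0.135). Against bone marrow the difference of 0.49 ± 0.16 (adjusted p = 0.0284) was lost without blood replicate 1, blood replicate 3, bone marrow replicate 2 or bone marrow replicate 3, with a range over the alternatives of 4.77e-05 to 0.0928.

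St3gal4, the sialyltransferase of the set, was highest in blood and lowest in lung. It measured 68.4, 65.1 and 69.8 TPM in blood (67.8 mean). Liver held 45.7, 38.6 and 26.4 TPM (36.9 ± 9.74, n = 3) and bone marrow 35.4, 34.3 and 31.9 TPM. Lymph node stood at 19.8, 20.5 and 24.5 TPM, spleen at 20.4, 22.9 and 17.9 TPM, and lung at 8.82, 13.5 and 9.65 TPM (10.6 ± 2.47). The liver libraries spanned the bone marrow ones, while the blood libraries lay above all others and the lung libraries below all others.

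Blood exceeded liver by 0.89 ± 0.18 on the log2 scale for St3gal4 (limma, adjusted p = 8.27e-04) and lung by 2.58 ± 0.18 (adjusted p = 8.76e-09). Spleen, second from the bottom, was above lung by 0.89 ± 0.18 (adjusted p = 8.52e-04). Liver and bone marrow did not differ beyond their spread (0.09, interval -0.29 to 0.47), nor did lymph node and spleen (0.08, interval -0.3 to 0.46). Liver against lung, at 1.69 ± 0.18 (adjusted p = 2.72e-06), was the 1 comparison of those 2 organs in which any member was called. St3gal4 in bone marrow against lymph node (0.63 ± 0.18, adjusted p = 0.0172) was lost without bone marrow replicate 1 or 2 or lymph node replicate 1 or 2, with a highest adjusted p of 0.0718. Without the abundant RNA classes neither this call nor that of bone marrow against spleen (0.71 ± 0.18, adjusted p = 0.00812, highest 0.0644) was made. The antisense transcript that overlaps St3gal4 was also highest in blood and lowest in lung, and its part in these values was not tested.

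Fut7, the leukocyte fucosyltransferase that makes sialyl Lewis x, departed from the other members by peaking in bone marrow. Its bone marrow libraries held 16.6, 12.7 and 18.5 TPM (15.9 ± 2.94, n = 3). Lymph node held 8.64, 8.55 and 8.71 TPM, and blood 6.38, 8.83 and 7.21 TPM (7.47 mean). Spleen (9.02, 4.34 and 5.56 TPM), liver (7.03, 7.03 and 4.36 TPM) and lung (5.63, 3.02 and 0.83 TPM) overlapped one another. The bone marrow libraries lay above all others, and the lung libraries were spread widest, at 3.16 ± 2.40 TPM.

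No neighbours in the order of Fut7 differed at the threshold. Bone marrow against lymph node gave 0.8 ± 0.36 on the log2 scale (interval 0.03 to 1.57, limma adjusted p = 0.147), and passed in 5 of 28 alternatives, without lung replicate 3 (0.0374) and with scaling to T cell genes (0.00743) among them. Blood against spleen gave 0.25 (interval -0.52 to 1.03) and liver against lung 0.94 (interval 0.17 to 1.71, adjusted p = 0.0562), which passed without liver replicate 3 (0.0403) or lung replicate 1 (0.0052) and with a stricter filter on low values (0.0476). The largest difference, bone marrow against lung, was 2.2 ± 0.36 (adjusted p = 1.39e-04). Blood was below bone marrow by -0.99 ± 0.36 at an adjusted p of 0.0481, which missed the threshold in 17 of 28 alternatives, 12 of which left out 1 library (range 3.32e-04 to 0.331). Spleen against lung, 0.95 ± 0.36 at 0.0479, missed it in 22 of 29, 15 of them with 1 library left out (range 0.00402 to 0.246). With 1 library left out, Fut7 ranged from 0.45 to 1.38 for spleen against lung, from 0.44 to 1.37 for liver against lung and from 0.7 to 1.63 for blood against lung, lowest without lung replicate 3 and highest without lung replicate 1 in each. Fut7 in blood against lung (1.2 ± 0.36, adjusted p = 0.0135) was lost without blood replicate 2 (0.0523) or lung replicate 3 (0.0661), and in a fit of those 2 organs alone (0.0794). Its call in bone marrow against liver (1.26 ± 0.36, adjusted p = 0.014) was lost without bone marrow replicate 3 or liver replicate 3, with a highest of 0.0551. That in bone marrow against spleen (1.25 ± 0.36, adjusted p = 0.0192) was lost without bone marrow replicate 1 or 3 or spleen replicate 2 or 3, with a highest of 0.0855, with a pseudocount of 0.1 (0.0512) and without the abundant RNA classes (0.063).

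Fut4, the second fucosyltransferase, acts in myeloid cells beside Fut7 and makes the myeloid carbohydrate antigen CD15 in people. It measured 9.09, 9.65 and 9.44 TPM in blood (9.39 mean) and 1.83, 1.86 and 2.01 TPM in bone marrow (1.90 mean). In spleen it measured 0.82, 0.24 and 0.63 TPM, in lymph node 0.15, 0.11 and 0.15 TPM and in lung 0.24, 0.06 and 0 TPM. It was listed at 0 in all 3 liver libraries, so no fold against liver is given. Blood and bone marrow overlapped neither each other nor the other organs.

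Blood exceeded bone marrow by 1.84 ± 0.19 for Fut4 (limma, adjusted p = 1.57e-06) and spleen by 2.75 ± 0.19 (adjusted p = 8.97e-09), on the log2(TPM + 1) scale, which understates changes of low genes. Bone marrow exceeded spleen by 0.91 ± 0.19 (adjusted p = 0.00182). Spleen and lymph node were not called apart, although their libraries did not overlap, nor were lymph node and lung, with adjusted p of 0.147 and 0.87. Spleen was above lung by 0.49 ± 0.19 (adjusted p = 0.0462), a call lost in 18 of 27 alternatives (range 0.011 to 0.169). The means of both organs were below the filter. The calls of Fut4 against liver rest on liver values listed at 0, and that of spleen was lost without spleen replicate 1 or 3 (0.0798 and 0.0565), with a pseudocount of 5 (0.0924) and with library weights (0.13). Within bone marrow Fut4 was the least abundant member and Fut7 stood at 15.9 TPM, whereas in blood the 2 fucosyltransferases were at 9.39 TPM (Fut4) and 7.47 TPM (Fut7). The summed monocyte and platelet lists had the same 2 leading organs in the same order as Fut4, and the summed neutrophil list the same 2 in the opposite order. Genes of the neutrophil list were split. Csf3r (730 against 145 TPM), Cxcr2 (249 against 56.2) and Il1b (1580 against 213) were higher in blood than in bone marrow. All other genes of that list were higher in bone marrow, Mmp9 by little (370 against 363 TPM). The part of these cells in the level of Fut4 was not tested.

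Cd44, the hyaluronan receptor, was highest in blood by a wide margin. It measured 281, 258 and 267 TPM in blood (269 ± 11.6, n = 3). Bone marrow (122, 128 and 123 TPM), lung (115, 113 and 108 TPM) and liver (113, 94.2 and 101 TPM) were close to one another. Lymph node held 73.3, 75.5 and 78.0 TPM and spleen 48.5, 55.8 and 54.8 TPM (53.0 ± 4.01). The lowest blood library lay far above the highest library of any other organ, and spleen lay below all others.

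Blood exceeded bone marrow by 1.11 ± 0.07 on the log2 scale for Cd44 (limma, adjusted p = 1.27e-08) and spleen by 2.32 ± 0.07 (adjusted p = 1.71e-12). Bone marrow and lung were not called apart (0.15, interval -0.01 to 0.3, adjusted p = 0.113), although their libraries did not overlap. They were called with scaling to T cell genes (0.29, adjusted p = 0.00497). Lung and liver did not differ beyond their spread (0.13, interval -0.03 to 0.28, adjusted p = 0.2), but passed without liver replicate 1 (0.0462) and with scaling to T cell genes (0.00114). Liver was above lymph node by 0.43 ± 0.07 (adjusted p = 3.25e-04), and lymph node above spleen by 0.51 ± 0.07 (adjusted p = 2e-04). For Cd44 the 2 non-lymphoid organs, lung and liver, were thus above both spleen and lymph node. For Selplg, by contrast, lymph node was above lung by 0.42 ± 0.07 (adjusted p = 1.08e-04), a difference that turned to -0.05 with scaling to T cell genes and was not called with median ratio scaling (0.0931). Cd44 in bone marrow was above liver by 0.28 ± 0.07 (adjusted p = 0.00811), a call lost without the abundant RNA classes (0.151), with median ratio scaling (0.25) and in a fit of those 2 organs alone (0.0657).

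Across the 15 organ pairs, 68 of the 90 member comparisons were called. Gcnt1, St3gal4 and Cd44 were called in 13 pairs each, Selplg and Fut4 in 11 and Fut7 in 7. In pairs without blood, 14.3% (spleen against lymph node) to 43.5% (bone marrow against lung) of all genes were called. The shares in the blood pairs follow, by direction. Blood was higher for 5 members against bone marrow, where 13.0% of all genes were higher, and lower for 1 member, Fut7, where 18.8% were lower. Blood was higher for 5 members against spleen (20.1% of all genes higher, 15.3% lower), for 5 against lymph node (16.4% higher, 21.0% lower), for 5 against liver (23.3% higher, 16.1% lower) and for 6 against lung (26.4% higher, 17.3% lower). The member that was not called against spleen, lymph node and liver was Fut7. Fut4 is among the members counted as higher in blood in all 5, but it passed the filter only through blood and bone marrow. The medians of the 6 members ran from 0.74 against bone marrow to 2.01 against spleen, beside medians over all genes of -0.11 and 0. The 5 comparisons share the blood libraries, so they are not separate observations of blood. The members were also chosen with earlier results of these data known.

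**Figure D3:**
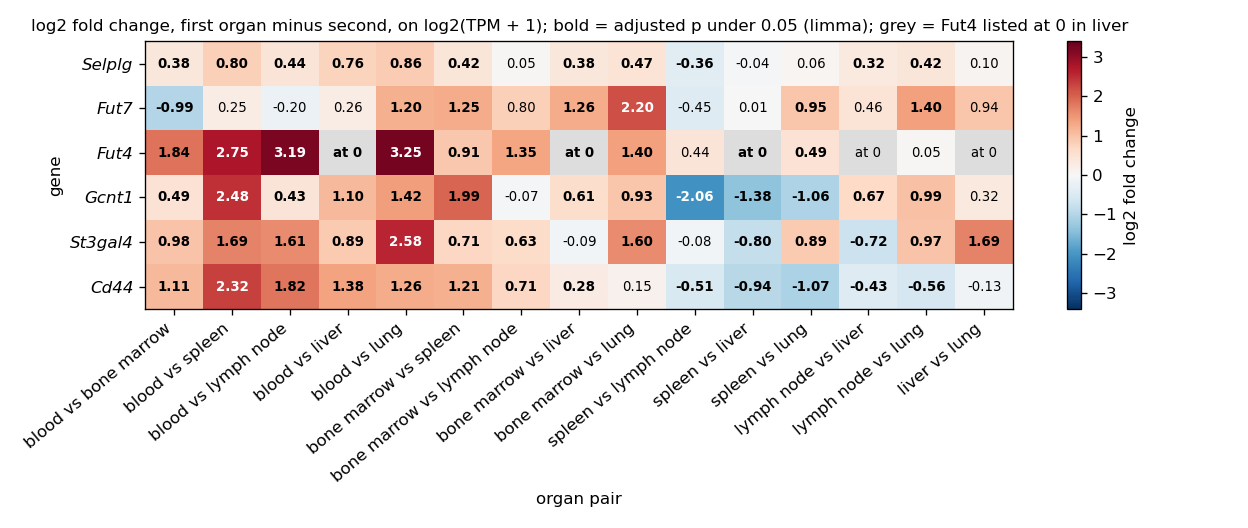
Log2 fold change of each member (rows) in the 15 organ pairs (columns), first organ minus second on log2(TPM + 1). Red is higher in the first organ, bold numbers were called, and grey cells hold no fold because Fut4 was listed at 0 in liver. The 5 blood columns are red apart from Fut7, which is at -0.99 against bone marrow and -0.20 against lymph node.

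Bone marrow was higher for 6 members against spleen (24.1% of all genes differed in either direction) and for 3 against lymph node (22.5%), namely Fut4, St3gal4 and Cd44. It was higher for 5 against liver (34.5%), all but St3gal4, and for 5 against lung (43.5%), all but Cd44. Each of these counts includes Fut4, which passed the filter only through blood and bone marrow. Spleen was lower than lymph node for 3 members (14.3%): Selplg, Gcnt1 and Cd44. Against liver, spleen was lower for 3 and higher for 1 (31.3%), and against lung lower for 2 and higher for 3, Fut7, Fut4 and St3gal4 (40.8%), with Gcnt1 and Cd44 lower in both. Lymph node against liver gave 2 higher and 2 lower (31.1%), and against lung 4 higher and 1 lower, Cd44 (42.3%). Liver and lung differed for 1 member, St3gal4, where 34.9% of all genes differed.

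In the 4 organs other than blood and bone marrow, which hold far less of the neutrophil and platelet genes, the F test called 4 of the 5 members that could be tested, beside 48.1% of all genes. The adjusted p was 1.08e-05 for Cd44, 6.43e-05 for Gcnt1, 5.5e-04 for St3gal4 and 0.00372 for Selplg. Fut7 was not called (0.0729), and Fut4 was below the filter in these 4 organs. The monocyte and macrophage genes stayed uneven here, with mean sums of 1520 TPM in lung, 585 in spleen, 357 in lymph node and 252 in liver. Their part in these calls was not tested.

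TPM divides 1 total among all RNA of a library, so the members were also scaled to the geometric mean of 20 T cell genes. That mean was 168 to 172 TPM in blood and 385 to 392 TPM in lymph node, and the scaling raised the log2 differences of all genes between blood and the other organs by a median of 0.55 (bone marrow), 0.87 (spleen), 1.09 (lymph node), 0.88 (liver) and 0.68 (lung). Members higher in blood then numbered 5 against bone marrow (35.6% of all genes higher, 7.21% lower), 6 against spleen (56.8% and 2.55%), 5 against lymph node (59.8% and 1.63%), 6 against liver (63.2% and 4.44%) and 6 against lung (55.2% and 6.86%), with none lower. Fut4 is again in each of these counts. Cd44 in blood against spleen went from 2.32 to 3.26, and Selplg from 0.80 to 1.74, both by about the shift of all genes. Fut7 in blood against bone marrow went from -0.99 to -0.47 (adjusted p = 0.331), and against spleen from 0.25 to 1.09 (adjusted p = 0.0176). Selplg in lymph node against lung turned from 0.42 to -0.05 (adjusted p = 0.616), and Gcnt1 in bone marrow against lymph node from -0.07 to 0.52 (adjusted p = 0.0146).

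**Figure D4:**
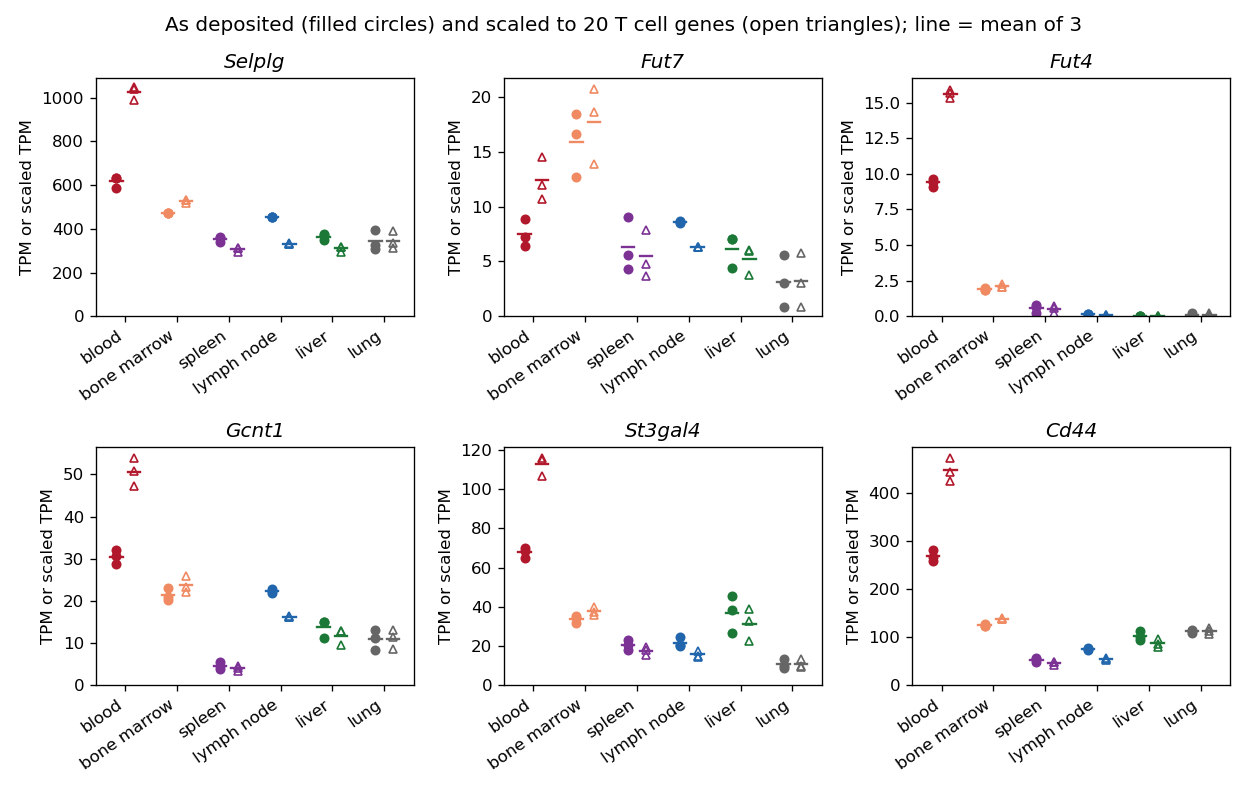
TPM as deposited (filled circles) and after scaling to 20 T cell genes (open triangles) for each member (y axis, linear from 0) by organ (x axis), with a line at each mean of 3 libraries. The blood values rise and the lymph node values fall under the scaling: Selplg moves from 618 to 1030 in blood and from 456 to 332 in lymph node, and Fut7 keeps its highest mean in bone marrow.

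The wider pathway was covered by 9 lists of 101 genes. Of these 85 passed the filter and 75 were called in the F test, with the highest mean in bone marrow for 17, lung for 17, blood for 16, lymph node for 16, liver for 8 and spleen for 1. The same test called 68.0% of all genes. Shares of all genes by highest organ are not given, so the organ counts here and below describe only these lists. With scaling to T cell genes, 46 of the 75 had their highest mean in blood, so the organ orders given here hold for TPM as deposited. The members kept their highest organ, 5 in blood and Fut7 in bone marrow. For those 5 this was fixed in advance, as blood was multiplied by 1.65 to 1.68 and other organs by 0.722 to 1.12. Blood was higher for 19 and lower for 29 pathway genes against bone marrow, 26 and 15 against spleen, 24 and 29 against lymph node, 28 and 22 against liver, and 36 and 18 against lung. The shares of all genes in these comparisons are given above with the members. With scaling to T cell genes, which let 88 pass the filter, the counts were 44 and 10, 69 and 2, 65 and 4, 65 and 6, and 62 and 10, in the same order, beside the shifts of all genes given above.

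Among the selectins, Selp was higher in blood in all 5 comparisons, and Sele did not pass the filter. The calls of Selp held with scaling to T cell genes, which itself raises the blood values. Selp, the P-selectin of platelets and endothelium, measured 15.1 ± 0.931 TPM in blood and at most 4.09 ± 4.45 TPM elsewhere (SD, n = 3), beside the platelet genes that were highest in blood.

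None of the 3 called genes among the other scaffolds was highest in blood (1 with scaling to T cell genes). Spn, which encodes CD43, differed little, from 218 ± 13.3 TPM in lung to 304 ± 6.05 in lymph node, and was lower in blood than in lymph node by -0.44 ± 0.05 (adjusted p = 3.45e-06), which turned to 0.75 (adjusted p = 3.8e-09) with scaling to T cell genes. Cd24a, a small glycoprotein that can carry P-selectin ligands, was highest in bone marrow (363 ± 15 TPM) and blood (170 ± 6.58) and lowest in lymph node (7.80 ± 0.168). Cd34, the stem cell and endothelial sialomucin, reached 7.57 ± 2.04 TPM in bone marrow and at most 0.430 TPM elsewhere.

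Of the 11 genes that start O-glycans and build core 1, the structure Gcnt1 acts on, all passed the filter and 10 were called, 4 of them highest in blood (8 with scaling to T cell genes). C1galt1, the core 1 synthase, measured 40.5 ± 1.75 TPM in blood and between 19.4 and 28.8 TPM in the other organs. Its chaperone gene C1galt1c1 measured 39.7 ± 3.84 TPM in blood and at most 18.7 TPM elsewhere, and was higher in blood in all 5 comparisons (smallest difference 1.04 ± 0.34, adjusted p = 0.0261). Galnt6 and Galnt10, which attach the first sugar, went other ways: Galnt6 was lowest in blood (65.1 ± 1.75 TPM) and highest in lung (142 ± 11.6), and Galnt10 was highest in lymph node (54.2 ± 1.25) and lowest in lung (15.5 ± 2.88). With scaling to T cell genes Galnt6 was lowest in liver and Galnt10 highest in blood.

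Chain extension and sialylation held some genes with the blood peak of St3gal4. B3gnt8, which extends lactosamine chains, ranged from 14.1 ± 0.660 TPM in blood to 0.527 ± 0.756 in lung, and B4galt5, a galactosyltransferase of glycolipids, from 33.0 ± 3.21 TPM in blood to 11.0 ± 1.01 in spleen. B3gnt5, which starts another glycolipid series, stood at 30.5 ± 0.294 TPM in blood and 29.8 ± 14.8 in liver. In all, 9 of 9 tested genes of chain extension were called, 3 of them highest in blood (5 with scaling to T cell genes). Of 16 sialylation genes 13 were called, 4 of them highest in blood (11 with scaling) and 5 in lymph node. St3gal6, the other sialyltransferase known to serve selectin ligands, measured 45.9 ± 7.82 TPM in blood, 20.6 ± 4.01 in bone marrow, 17.4 ± 4.50 in liver and 4.31 ± 1.16 in lung. St3gal1, which caps core 1 and competes with Gcnt1 for it, was as high in lymph node (52.5 ± 1.79 TPM) as in blood (52.8 ± 1.18) within the spread. With scaling to T cell genes St3gal1 was higher in blood than in lymph node by 1.18 (limma adjusted p = 7.91e-07). St3gal5, the ganglioside GM3 synthase, was highest in bone marrow (67.0 ± 5.08 TPM) and St8sia1, the GD3 synthase, in lymph node (19.7 ± 1.01), or in blood with the scaling.

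The genes that supply fucose to Fut7 and Fut4, with the other fucosyltransferases, depended on the scaling in their order of organs. Of 11 tested 10 were called, and 1 of those was highest in blood, or 7 with scaling to T cell genes. None was higher in blood than in bone marrow, spleen or lymph node, beside 13.0%, 20.1% and 16.4% of all genes. With that scaling, under which 12 genes of the list passed the filter, 4, 10 and 9 were, beside 35.6%, 56.8% and 59.8% of all genes. Slc35c1, the Golgi importer of GDP-fucose, measured 45.4 ± 2.08 TPM in bone marrow, 38.9 ± 1.39 in blood and 22.1 ± 3.65 in lung, and was highest in blood with that scaling. Tsta3, which makes GDP-fucose, ranged from 39.6 ± 6.97 TPM in liver to 62.0 ± 3.81 in lymph node, and was likewise highest in blood with the scaling. Slc35c2 and Fuk, a transporter and the fucose kinase, were lowest in lung (15 ± 4.81 and 2.90 ± 0.684 TPM), as was Fut8, the core fucosyltransferase of N-glycans (10.9 ± 1.91).

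None of the 6 sulfation genes called among 8 tested was highest in blood, or 2 with scaling to T cell genes. Tpst2, which sulfates tyrosines such as those of PSGL-1, measured 118 ± 5.81 TPM in bone marrow and 76.5 ± 5.95 in blood. Tpst1, the second such enzyme, was not called (adjusted p = 0.148) and measured 4.67 to 9.50 TPM as organ means. Chst2, a sulfotransferase of selectin ligands, stood out by its low level in blood, 0.843 ± 0.221 TPM against means of 5.32 to 6.78 TPM elsewhere. Slc35b2, which imports the sulfate donor, was highest in bone marrow (42.5 ± 5.87 TPM), and Chst10 ranged from 13.9 ± 4.70 TPM in lung to 25.8 ± 0.982 in lymph node (highest in bone marrow with the scaling).

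Among 12 tested genes for linkers, ligands and shedding of Cd44, 10 were called and 2 of these were highest in blood (5 with scaling to T cell genes). Cd74, the invariant chain that can associate with Cd44, measured 1800 ± 56.5 TPM in blood and 292 ± 26.8 in liver; it is also abundant in B cells and monocytes. Spp1, which encodes the Cd44 ligand osteopontin, was present in lung (45.7 ± 10.2 TPM) and bone marrow (33.2 ± 2.91) and at most at 1.37 TPM elsewhere. Hmmr, a hyaluronan-binding protein of dividing cells, reached 15.3 ± 0.928 TPM in bone marrow and was lowest in blood (0.543 ± 0.0907), or in lung with the scaling.

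All 12 regulators tied to the ligand genes were called, in a test that called 68.0% of all genes. Of these regulators 8 were highest in lung and none in blood (5 in blood with scaling to T cell genes). Tbx21, the T-bet gene, a known inducer of selectin ligand synthesis in T helper 1 cells, was highest in liver (23.4 ± 3.87 TPM) and lowest in lymph node (2.96 ± 0.766), with 10.6 ± 0.688 TPM in blood. Tbx21 in blood did not differ from bone marrow (-0.18 ± 0.29, limma adjusted p = 0.71). Il12rb2, the signalling chain of the interleukin 12 receptor, was present in lung (5.87 ± 3.45 TPM) and blood (5.69 ± 0.685) and below 1 TPM elsewhere, with blood highest under the scaling. Gata3, a factor of T helper 2 cells and of tissue Treg cells, was lowest in blood (29.5 ± 1.45 TPM) and highest in lung (189 ± 9.09), whereas with scaling to T cell genes it was lowest in lymph node.

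**Figure D5:**
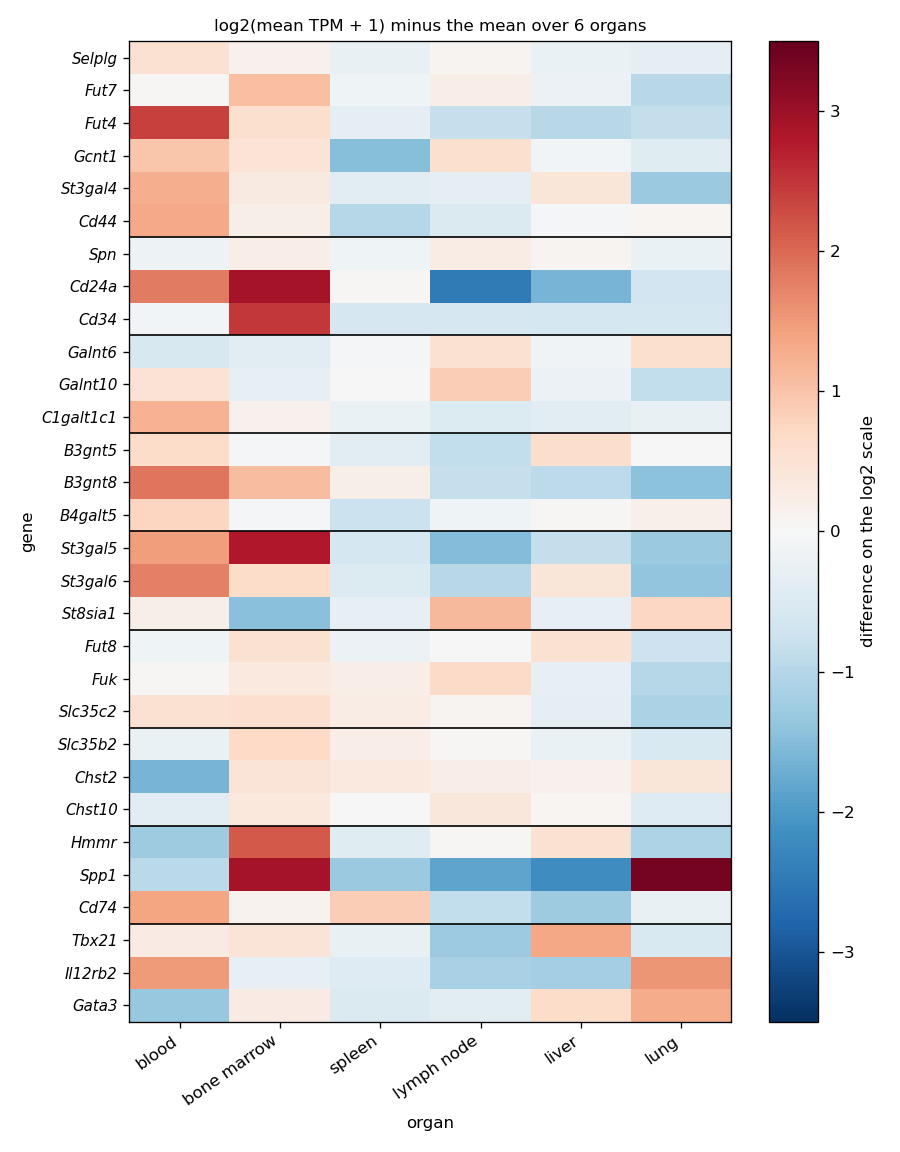
Organ means on log2(TPM + 1), each minus the mean over the 6 organs, for the 6 members (top block) and the 3 called genes with the widest range of each pathway list other than the selectins (blocks split by lines). Red is above and blue below the gene's own mean: 5 members are reddest in blood, while the blocks below are mixed, with Cd24a, Cd34, St3gal5 and Hmmr reddest in bone marrow.

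Members did not follow a single pattern. Over the 18 libraries, which fall into 6 organs, Pearson's r of log2(TPM + 1) was 0.85 between Selplg and Fut4 and 0.8 between Selplg and Gcnt1, and lay lowest between Fut7 and Cd44 (0.09). Over the 12 libraries without blood and bone marrow, Selplg and Gcnt1 stood at 0.66, Selplg and Cd44 at -0.2, and Selplg and St3gal4 at 0.23. These describe the libraries and carry no test, since libraries of an organ share their source.

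Of 9452 genes whose highest organ mean was 10 TPM or more, those most like each member were ranked by the same r over 18 libraries. For Selplg they were Ttyh3 (0.96), Man2b1 (0.955) and Cd101 (0.946), which stayed at 0.803 to 0.837 without blood and bone marrow (12 libraries). For Fut7 they were Pgp (0.919), Lman1 (0.899) and Taf4 (0.891), each highest in bone marrow. For Gcnt1 they included Wipf2 (0.915) and Foxn2 (0.893), each lowest in spleen. For St3gal4 they were Oas3 (0.966), Cass4 (0.951) and Evi2b (0.935), each highest in blood and lowest in lung. Cd44 was most like Mtmr6 (0.962), Lamp2 (0.957) and Ppp1r3b (0.957). Fut4 was most like Gad1-ps (0.987) and Nat8l (0.984), and without blood and bone marrow these stood at 0.528 and 0.515.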

How the data were processed

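Poly(A) RNA of sorted Treg cells was sequenced from 6 organs, with 3 libraries each. Libraries were made with a directional kit from RNAiso Plus extracts, per the labels' protocols. STAR, RSEM and the mm10 build are named, with no versions, in the submitters' processing notes. The annotation and the strand setting are not given in the sources used here. The authors deposited TPM, 1 table a library, with 55487 Ensembl genes that sum to 999999.27 to 1000000.62. The values keep no read depth, so no counting intervals are given.

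Symbols were taken from GENCODE M21 (346 IDs have none), and all 221 list entries matched. Gfus and Fcsk are listed there as Tsta3 and Fuk. Expression was compared with limma 3.58.1 (R 4.3.3) on log2(TPM + 1), over the 16694 genes whose highest organ mean was 1 TPM or more. All 18 libraries entered 1 model with a mean per organ (eBayes with trend and robust settings), an F test over the organs and 15 organ pairs. Benjamini-Hochberg adjustment ran over the 16694 genes in each comparison, with a threshold of 0.05 on the adjusted p. The code was tested on simulated data. Alternatives changed the pseudocount (0.1 and 5), the filter (none, or 5 TPM), the scaling (20 T cell genes, median ratios, or without abundant RNA classes), the library weights, the replicate block and the libraries used.

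Pathway genes are named when called in the F test with an organ mean of 5 TPM or more and when either among the 3 widest ranges of their list or needed for a member's role; Tpst1, not called, was kept for its role. Some genes that these rules name are not reported here. The genes most like a member exclude predicted genes, receptor segments and IDs without a symbol. The members and the lists (9 of the pathway, 11 of cell types with the Treg list, and the T cell scaling genes) were chosen with earlier results of these data known.

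The lists of cells other than neutrophils, monocytes and macrophages, platelets, and CD8 T and natural killer cells gave these summed TPM. The 6 Treg genes summed to 802 to 818 in blood and 1370 to 2670 elsewhere. The 9 B cell genes summed to 293 to 1870 over the organs, the 6 plasma cell genes to 208 to 2170 and the 8 erythroid genes to 72.8 (lymph node) to 12000 (liver). The 8 hepatocyte genes summed to 0.570 to 170, the 6 lung epithelium genes to 222 to 297 in lung and at most 14.2 elsewhere, and the 8 genes of endothelium and stroma to 74.0 to 142.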

Additional observations from a re-analysis of the deposited data

How the results depend on the processing

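Of the 90 member comparisons, 55 kept their direction and their side of the threshold under every alternative that could be fitted. In 29 the call changed under at least 1 alternative, with 108 values no longer called and 21 newly called. The sign turned in 22 values of 12 comparisons, 20 of them called neither as reported nor under the alternative. The other 2 came under scaling to T cell genes: Selplg in lymph node against lung (-0.05, from 0.42) and Gcnt1 in bone marrow against lymph node (0.52, from -0.07). The same scaling turned Selplg in spleen against lung (-0.17) and in liver against lung (-0.15), Fut7 in blood against lymph node (0.87), and St3gal4 in bone marrow against liver (0.29) and in spleen against lymph node (0.16). Median ratio scaling turned Selplg in spleen against lung (-0.02), Fut7 in blood against lymph node (0.02) and in spleen against liver (-0.01), St3gal4 in spleen against lymph node (0.11) and Cd44 in bone marrow against lung (-0.07). Without the abundant RNA classes, Selplg turned in bone marrow against lymph node (-0.07) and in spleen against liver (0.04), and St3gal4 in spleen against lymph node (0.01). With 1 library left out, values on both sides of 0 were found for Selplg in spleen against lung (-0.01 to 0.16), Fut7 in spleen against liver (-0.25 to 0.21), Fut4 in lymph node against lung (-0.01 to 0.14), and St3gal4 in bone marrow against liver (-0.30 to 0.08) and in spleen against lymph node (-0.16 to 0.01). The cause was not tested.

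The member comparisons called in the 15 organ pairs numbered 68, and 61 to 69 with 1 library left out. The shares of all genes called in each pair are given above for the fit as reported, not for these alternatives. With a replicate block 66 were called. Over 45 same-number pairs of libraries the correlation of deviations from the organ means ran from -0.034 to 0.03. These values show no pairing by replicate number. They cannot exclude shared animals, because the spread between libraries of an organ may be technical. The block ended the calls of Fut4 in spleen against lung and of Gcnt1 in blood against lymph node.

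The pathway genes called in the F test numbered 75, and 49 without blood and bone marrow, a fit with fewer genes and libraries. The shares of all genes called were 68.0% and 48.1%. The pathway genes called in the 5 blood contrasts numbered 133 higher and 113 lower, and with scaling to T cell genes 305 higher and 32 lower. Fut4 could not be fitted without blood and bone marrow. Low genes are limited most in liver and lung, which had the fewest genes above 0.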
